A study of Homo sapiens with 4 samples.

Results

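MIR100HG, MIR222HG and LINC-PINT are non-coding RNA genes with long domains of reduced H3K4me3 in Tat-SID-treated MDA-MB-231 cells, an established human triple-negative breast cancer line. They are described here with MIR100, a miRNA gene inside MIR100HG that is near such a domain and has none of its own. These are 4 of the 64486 genes in the annotation used here (GENCODE release 44, mapped to GRCh37). A region was assigned to a gene when it overlapped the gene body or lay within 3 kb of the TSS of any of its transcripts. The genes were chosen from the lists of reduced regions themselves, so that the presence and the length of a region at them are descriptions, for which no test is given.

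H3K4me3 was profiled by ChIP-Seq on native, MNase-digested chromatin, with 1 library each from untreated cells, from cells given 1 μM Tat-SID and from cells given 2.5 μM Tat-SID, beside 1 library of input DNA. Tat-SID is a decoy peptide that carries the SIN3 interaction domain of MAD joined to the cell-penetrating Tat sequence, and it competes for the PAH2 domain of the SIN3 corepressor. Both doses were compared by the authors with the same untreated library by SICER-df, which merges neighbouring windows with ChIP reads into islands and then compares the reads in each island. The deposited lists used here hold positions only, with no read number or size of change, so the depth is unknown from them, and with 1 library per condition no difference between conditions could be tested.

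H3K4me3 is laid down at the starts of transcribed genes, where it usually spans a narrow interval, and broad domains that run into the gene body are a known feature of strongly expressed genes and of genes that mark a cell's identity. MIR100HG and MIR222HG are host genes, which are transcribed into long precursors from which miRNA hairpins are cut. The MIR100HG precursor carries miR-100, let-7a and miR-125b, and the MIR222HG precursor carries miR-221 and miR-222, known repressors of the cell cycle inhibitor p27. LINC-PINT is a long non-coding RNA gene induced by p53, and the miR-29a and miR-29b-1 hairpins lie within its annotated body.

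The miRNAs of these loci, shown because their hairpins mark where each precursor is processed, fall into 5 groups by seed, the bases from position 2 to 8 that pair with target mRNAs. The mature sequences are those of RefSeq and are written 5′ to 3′ with the seed in capitals. The paralogs carried by the related clusters of MIR99AHG and of the SPACA6 locus are shown beside those of MIR100HG.
hsa-miR-100-5p: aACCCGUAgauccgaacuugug
hsa-miR-99a-5p: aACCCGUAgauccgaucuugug
hsa-miR-99b-5p: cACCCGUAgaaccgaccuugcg
hsa-let-7a-5p: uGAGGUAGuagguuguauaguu
hsa-let-7c-5p: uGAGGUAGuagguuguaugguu
hsa-let-7e-5p: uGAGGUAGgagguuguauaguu
hsa-miR-125b-5p: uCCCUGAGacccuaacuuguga
hsa-miR-125a-5p: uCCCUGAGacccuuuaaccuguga
hsa-miR-221-3p: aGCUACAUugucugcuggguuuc
hsa-miR-222-3p: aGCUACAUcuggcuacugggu
hsa-miR-29a-3p: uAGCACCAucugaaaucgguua
hsa-miR-29b-3p: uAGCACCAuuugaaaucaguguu

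Within each group the seed is identical. Mature miR-100 differs from miR-99a at 1 of 22 positions and from miR-99b at 4, and let-7a differs at 1 of 22 positions from let-7c and from let-7e. Compared position by position from the 5′ end, miR-221 and miR-222 differ at 10 of 21 positions, and miR-29a and miR-29b at 4 of 22. No gap was allowed in these counts. With a gap of 1 base after the seed, miR-221 and miR-222 match more closely, so the 10 overstates their difference. let-7 is known to repress growth-promoting genes such as RAS and HMGA2, miR-100 is known to repress MTOR, and miR-29 to repress collagen genes.

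At 1 μM, 3 of the 4 genes had a reduced region, MIR100HG, MIR222HG and LINC-PINT with 1 each, and MIR100 had none. At 2.5 μM all 4 genes had one: MIR100HG had 2, MIR222HG 1 and LINC-PINT 3, and MIR100 was reached only by a region of its host gene. By the same rule, 245 of the 64486 annotated genes (0.38%) had a region at 1 μM and 3622 (5.62%) at 2.5 μM. Among the 18702 lncRNA genes, the shares were 0.487% and 5.37%, among the 20176 protein-coding genes 0.699% and 11.3%, and among the 3049 annotated miRNA genes 0.131% and 2.26%. Without the gene body, from the 3 kb around transcript starts alone, the shares of all genes were 0.36% and 5.3%. From the 3 kb around the first base of each gene alone, 1 of the 4 genes, MIR222HG, had a region at 1 μM, since the regions of MIR100HG and LINC-PINT at that dose lie at internal starts. At 2.5 μM 3 of the 4 had one by that rule, beside 187 of all 64486 genes at 1 μM and 3120 at 2.5 μM. None of the 3 regions of increased H3K4me3 at 2.5 μM lay at any of the 4 genes.

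**Figure D1:**
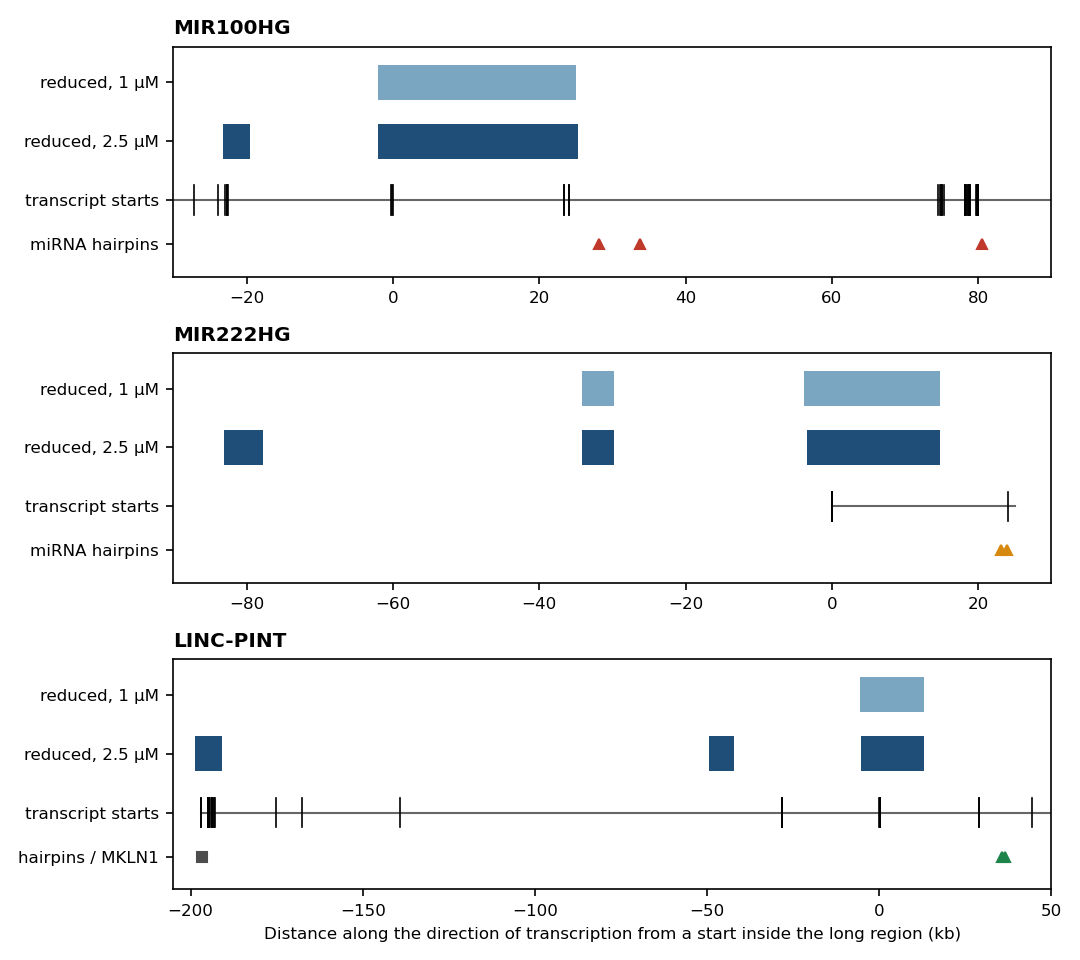
Reduced regions, annotated transcript starts and miRNA hairpins at MIR100HG, MIR222HG and LINC-PINT, along the direction of transcription in kb from an annotated start inside the long region of each gene. Light bars are regions of the 1 μM list and dark bars those of the 2.5 μM list, triangles are hairpins and the square is the start of MKLN1; the long regions end before the hairpins at all 3 loci.

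MIR100HG spans chr11:121899033-122427429 on the minus strand (ENSG00000255248, 528 kb), with 107 annotated transcripts. Its reduced region at 1 μM, chr11:122026151-122053149, was 26999 bp long, and at 2.5 μM the region was chr11:122025801-122053149, 27349 bp. These were the longest regions of both lists, of 141 and 2063 regions. The region lay wholly inside the gene and covered 5.18% of it at 2.5 μM. Only 6.64% of its bases were exonic, the rest being intron, so that it lay over the interior of the gene and not over the gene's first base, which is 374 kb away at 1 μM.

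The long MIR100HG region held 8 transcript starts in 2 clusters, close to its opposite ends, and 1 of the 8 belongs to a transcript of the annotation's basic set. At the upstream end, 3 transcripts start between 122051146 and 122051340, and 5 start between 122027050 and 122027821 near the downstream end. The second MIR100HG region, found at 2.5 μM only, was chr11:122070701-122074399, 3699 bp long and ranked 1672 of 2063 in length. It was placed on a separate cluster of 8 transcript starts between 122073711 and 122074050, and 63.9% of its bases were exonic. The other large groups of MIR100HG starts carried no region at either dose. The group of 37 transcripts that start between 121971156 and 121972911 was 52.9 kb from the nearest region at 2.5 μM, and those of 13, 14 and 9 transcripts further upstream were 106 kb, 164 kb and 218 kb from it. At MIR100HG the reduced regions thus lay at a subset of its annotated starts. The lists hold changed regions only. Whether a start without a reduced region, here or at the other loci, carried H3K4me3 in untreated cells cannot be read from them.

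MIR100 itself (ENSG00000207994, chr11:122022937-122023016, 80 bp) lies just downstream of the long region. Its start was 3135 bp from the region's end at 1 μM, outside the 3 kb limit, and 2785 bp from it at 2.5 μM, inside the limit. The presence of MIR100 on one list and not the other therefore came from a shift of one end of the MIR100HG region across the limit, and no region of either list overlapped the hairpin. The hairpin of let-7a-2 (chr11:122017230-122017301) followed at 8850 bp from the region at 1 μM and 8500 bp at 2.5 μM, and that of miR-125b-1 (chr11:121970465-121970552) at 55.6 kb and 55.2 kb. From the start at 122051146, whose transcript is in the annotation's basic set, to the MIR100 hairpin is 28130 bp. Of this the region covered 88.9% at 1 μM and 90.1% at 2.5 μM. The share depends on the start taken: from the basic start at 122073711, reduced regions covered 53.3% of the way at 1 μM and 59.9% at 2.5 μM. Both of these starts lie inside reduced regions of the 2.5 μM list. The shares do not apply to transcripts from the canonical start at 122427429 or from the other groups further upstream. From the start at 122051146, the long region covered 74.9% of the way to let-7a-2 and 31.4% of the way to miR-125b-1 at 2.5 μM. The group of 37 transcripts that start between 121971156 and 121972911 begins between the region and miR-125b-1, so that the last share does not apply to them.

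MIR222HG spans chrX:45604638-45629677 on the minus strand (ENSG00000270069, 25040 bp), with 4 annotated transcripts. Its region was chrX:45614951-45633449 at 1 μM, 18499 bp and ranked 3 in length, and chrX:45614951-45633099 at 2.5 μM, 18149 bp and ranked 2, level with LINC-PINT. Unlike the MIR100HG region, it covered the start of the gene. It reached 3772 bp upstream of the gene's first base at 1 μM and 3422 bp at 2.5 μM, and 14726 bp downstream of it at both doses. It thereby took in 58.8% of the gene, and 3 of the 4 transcripts start inside it, between 45629670 and 45629677. The other starts at 45605608, which is 9343 bp beyond the region. An unnamed lncRNA gene on the same strand, ENSG00000269902, also starts inside the region, at 45624702.

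The MIR222 hairpin (chrX:45606421-45606530) lay 8421 bp past the downstream end of the region, and the MIR221 hairpin (chrX:45605585-45605694) 9257 bp past it, at both doses. From the canonical MIR222HG start to MIR222 is 23147 bp, of which the region covered 63.6%, and it covered 61.4% of the way to MIR221. The nearest protein-coding genes on either side, DIPK2B and KRBOX4, are 544 kb and 677 kb away and had no region at either dose.

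A second region near MIR222HG, chrX:45659501-45663799, was on both lists with the same ends. It was 4299 bp long and 29.8 kb upstream of the gene, with no annotated transcript start within 3 kb. Another, chrX:45707401-45712699, 5299 bp long and on the 2.5 μM list only, lay 77.7 kb from the gene at starts of LINC02595. Neither touched MIR222HG, and neither was counted for it.

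LINC-PINT spans chr7:130476023-130794935 on the minus strand (ENSG00000231721, 319 kb), with 69 annotated transcripts. Its long region was chr7:130585151-130603599 at 1 μM, 18449 bp and ranked 4 in length, and chr7:130585151-130603299 at 2.5 μM, 18149 bp, the same length as that of MIR222HG. It lay inside the gene and covered 5.69% of it at 2.5 μM, with 10.5% of its bases exonic. Within it start 5 LINC-PINT transcripts, 1 of them basic, between 130597872 and 130598069. On the plus strand, 1 of the 4 transcripts of LINC00513 starts at 130598267, which is 198 bp from the nearest LINC-PINT start, so the region held starts of both strands.

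Most LINC-PINT transcripts start elsewhere. At 2.5 μM, 55 of the 69 start inside chr7:130789051-130796849, a region of 7799 bp that ranked 216 in length and holds the canonical LINC-PINT start at 130792687. The same region holds the first starts of MKLN1, a protein-coding gene on the plus strand, 21 bp from the nearest LINC-PINT start, and the mark there cannot be divided between the genes. This region was on the 2.5 μM list only, so that at 1 μM the main cluster of LINC-PINT starts carried no reduced region and the internal cluster did. A further region at 2.5 μM, chr7:130640351-130647399, 7049 bp, lay 14.0 kb from the nearest LINC-PINT start. The hairpins of miR-29b-1 (chr7:130562218-130562298) and miR-29a (chr7:130561506-130561569) were 22.9 kb and 23.6 kb past the long region. It covered 36.1% of the 35771 bp from the start at 130598069 to miR-29b-1. That start lies inside the long region, and the share does not apply to the transcripts that start at the main cluster further upstream.

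No hairpin of the miRNAs carried by MIR100HG, MIR222HG or LINC-PINT overlapped a region at either dose. Of the 3049 annotated miRNA genes, 3 (0.0984%) overlapped a region at 1 μM and 40 (1.31%) at 2.5 μM. At all 3 loci the nearest region lay upstream of every hairpin, in the part of the gene transcribed before it.

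The ends of the long regions hardly moved between the doses. At MIR100HG the end at the higher coordinate was the same and the other moved 350 bp towards MIR100, which made the region 350 bp longer at 2.5 μM. At MIR222HG and LINC-PINT the end at the lower coordinate, which faces the hairpins, was the same. Their upstream ends drew in, and the regions fell by 350 bp and 300 bp in length. Each long region thus kept 1 of its ends, within the steps of 50 bp in which ends are placed. This was common among all regions: of 141 regions at 1 μM, 139 overlapped exactly 1 region at 2.5 μM, 34 of these had both ends the same and 77 had 1 end the same. Of the 139, 73 were shorter at 2.5 μM, 29 longer and 37 equal, with a median change of -50 bp, and 100 of them (71.9%) changed by no more than 350 bp. The lists share their untreated library, and the part of that library in the shared ends was not tested.

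**Figure D2:**
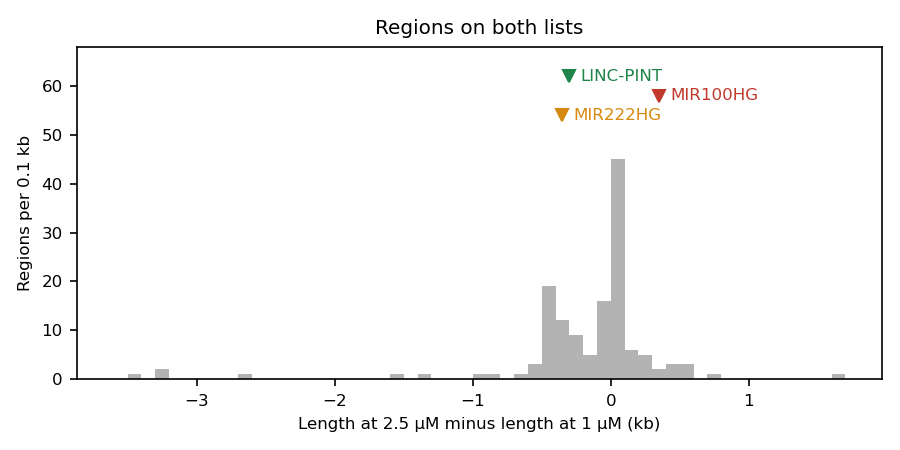
Change in length (2.5 μM minus 1 μM, in kb) of the 139 regions of the 1 μM list that overlap exactly 1 region of the 2.5 μM list, in bins of 0.1 kb. Triangles give the long regions of LINC-PINT (-300 bp), MIR222HG (-350 bp) and MIR100HG (350 bp), which lie among the bulk of the regions.

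In length the regions of MIR100HG, MIR222HG and LINC-PINT ranked 1, 3 and 4 at 1 μM and 1, 2 and 2 at 2.5 μM. At 1 μM all regions ran from 4149 to 26999 bp with a median of 8599 bp, and 9 reached 15000 bp. At 2.5 μM the range was 199 to 27349 bp with a median of 4949 bp, and 11 reached 15000 bp. The other regions among the 5 longest at 1 μM were those of ARHGAP29 (18699 bp) and of the adjoining starts of CCDC85B, FIBP and FOSL1 (18249 bp). At 2.5 μM they were the latter (17749 bp) and that of NR2F2 (16999 bp), a nuclear receptor gene. FOSL1 encodes a subunit of the transcription factor AP-1. The smaller LINC-PINT regions at 2.5 μM, of 7799 and 7049 bp, were above the upper quartile of 6199 bp, and the smaller MIR100HG region of 3699 bp was below the median.

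**Figure D3:**
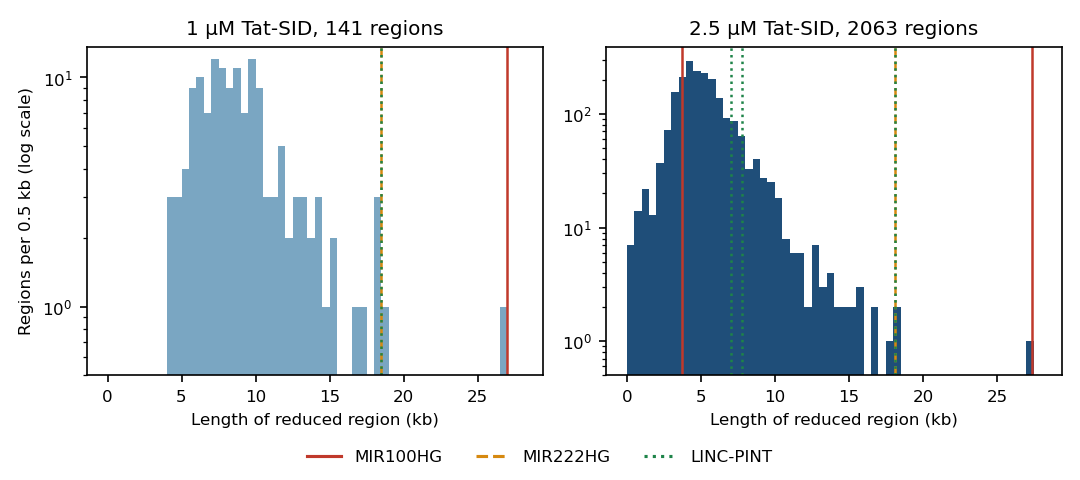
Length (kb) of all reduced regions at 1 μM (141 regions) and 2.5 μM (2063 regions), in bins of 0.5 kb on a log count axis. Vertical lines give every region of MIR100HG (solid), MIR222HG (dashed) and LINC-PINT (dotted); the MIR100HG region of 26999 and 27349 bp stands beyond all others, and the MIR222HG and LINC-PINT lines overlap near 18149 bp at 2.5 μM.

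Regions with only non-coding starts were a small class. At 2.5 μM, 1760 of the 2063 regions (85.3%) had a protein-coding start within 3 kb, 142 (6.88%) had non-coding starts only and 161 (7.80%) had none. The non-coding class had a median length of 4174 bp, below the 5099 bp of the protein-coding class, although 4 of its regions reached 15000 bp. These were the 3 long regions described here and 1 that holds a start of the pseudogene VENTXP2, named after its length was seen. At 1 μM the non-coding class held 12 of 141 regions (8.51%), with a median of 9424 bp beside 8549 bp, and 3 that reached 15000 bp, all at MIR100HG, MIR222HG or LINC-PINT.

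At every other miRNA host gene with a region, the longest region was shorter than at MIR100HG or MIR222HG. Of 83 genes named as miRNA host genes, 4 had a region at 1 μM (4.82%) and 15 at 2.5 μM (18.1%), MIR100HG and MIR222HG included. Without MIR100HG and MIR222HG, which were chosen for their regions, 2 of 81 had one at 1 μM and 13 of 81 at 2.5 μM. Over all annotated lncRNA genes, which were not matched for gene length, the shares were 0.487% and 5.37%. At 1 μM the hosts apart from MIR100HG and MIR222HG were MIR181A1HG with 9749 bp and MIR3142HG with 7699 bp. At 2.5 μM the 13 apart from MIR100HG and MIR222HG had longest regions of 3099 to 13249 bp, with a median of 6149 bp. The longest was at MIRLET7BHG (13249 bp), which carries let-7 miRNAs, followed by MIR181A1HG (9299 bp), MIR23AHG (7999 bp), MIR3142HG (7649 bp) and MIR99AHG (7349 bp). MIR497HG, MIRLET7IHG, MIR137HG, MIR4435-2HG, MIRLET7A1HG, MIR17HG, MIR181A2HG and MIR924HG lay between 6349 and 3099 bp. The longest regions of MIR100HG and MIR222HG exceeded those of every other host with a region, but these genes were chosen for long regions. The second MIR100HG region at 2.5 μM, of 3699 bp, did not exceed them.

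Of 30 genes listed by name as lncRNAs, LINC-PINT among them, 4 had a region at 1 μM (13.3%) and 10 at 2.5 μM (33.3%). Without LINC-PINT, 3 of 29 had one at 1 μM and 9 of 29 at 2.5 μM. The list was chosen with earlier results of these data known and was not matched to other lncRNA genes. Over all annotated lncRNA genes the shares were 0.487% and 5.37%. In the annotation used, TUG1 and TINCR are typed as protein-coding and BCYRN1 as an scRNA, and none of them had a region. After LINC-PINT, the nuclear RNAs MALAT1 and NEAT1 had the longest at 2.5 μM, 12749 and 12649 bp, and MALAT1 had 12549 bp at 1 μM. DLEU1 and DLEU2 shared a region of 9999 bp at 1 μM and 10549 bp at 2.5 μM. At 2.5 μM CYTOR and SNHG1 each had 7749 bp, GAS5 6649 bp, NORAD 4099 bp and LUCAT1 3499 bp. The median over the 9 genes other than LINC-PINT was 7749 bp, with the region shared by DLEU1 and DLEU2 counted for each of them, as in the counts above.

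**Figure D4:**
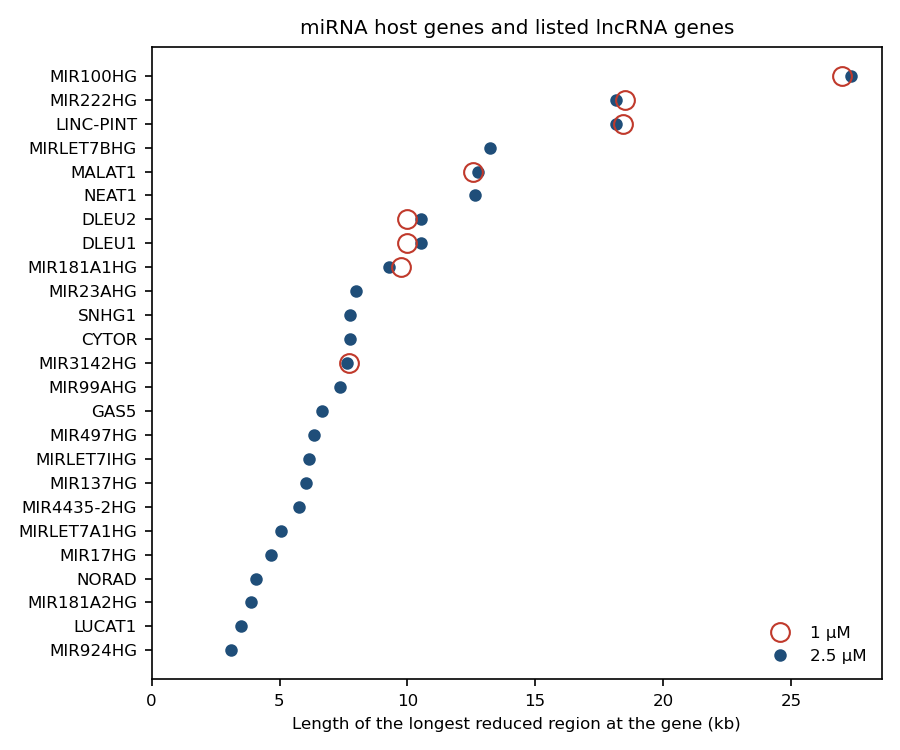
Length (kb) of the longest reduced region at every miRNA host gene and listed lncRNA gene that had one, with open circles for 1 μM and filled circles for 2.5 μM. MIR100HG, MIR222HG and LINC-PINT lead, followed by MIRLET7BHG at 13249 bp; no open circle means that the gene had no region at 1 μM.

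Of the 3 related clusters that carry miR-100 or miR-99, let-7 and miR-125, 2 had a reduced region. The MIR100HG cluster had a region at both doses. The MIR99AHG cluster, on chromosome 21, had 3 regions at 2.5 μM and none at 1 μM. Its first, chr21:17565601-17569849, was 4249 bp long and held 51 of 258 transcript starts, the next, chr21:17790151-17797199, was 7049 bp long and held 48, and the last, chr21:17904701-17912049, was 7349 bp long and held 6. This last region contained the MIR99A hairpin (chr21:17911409-17911489) and ended 99 bp before that of let-7c, whereas the MIR100 hairpin lay outside its region. The SPACA6 cluster had no region at either dose, and the hairpins of miR-99b, let-7e and miR-125a were 118 to 119 kb from the nearest at 2.5 μM. No difference between them was tested.

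The neighbouring protein-coding genes and the nearest other regions are given for each locus, without a comparison with the usual spacing of regions. At MIR222HG other regions lay 29.8 kb and 77.7 kb from the gene at 2.5 μM, as described above. The protein-coding genes next to MIR100HG, SORL1 at 395 kb and UBASH3B at 99 kb, had no region at either dose, nor had BLID, which lies inside it. Measured from the outermost reduced regions of MIR100HG and not from the gene, the nearest other regions at 2.5 μM were at ARHGEF12, 1814 kb away, and HSPA8, 852 kb away. Beside LINC-PINT, KLF14 at 57.1 kb and PODXL at 390 kb had none. Measured from the outermost reduced regions of LINC-PINT, the nearest other regions were at KLHDC10 (873 kb) and BPGM (3533 kb). On the side of MIR222HG without LINC02595, the nearest was at KDM6A, 879 kb from the reduced region of MIR222HG.

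The long regions lay in sequence of low CpG content. In bins of 500 bp, with a bin called CpG-rich at a GC content over 50% and an observed to expected CpG ratio over 0.6, none of the 54 bins of the MIR100HG region at 2.5 μM was CpG-rich, and none of the 36 bins at MIR222HG or of the 36 at LINC-PINT. GC content over the whole region was 39.3% at MIR100HG, 38.3% at MIR222HG and 43.3% at LINC-PINT, beside a median of 45.1% over all 2063 regions. The CpG ratio was 0.186, 0.243 and 0.288, beside a median of 0.569. The 409 other regions without a CpG-rich bin had a median GC content of 37.6% and a median ratio of 0.256. The long regions were all above that GC content and lay on both sides of that ratio. Most reduced regions contained CpG-rich sequence: 412 of 2063 (20.0%) had no such bin, and of the 8 other regions of 15000 bp or more 2 had none. Those 2, at VENTXP2 and at chr3:104151601-104166899, held no protein-coding start. Low CpG content was thus also found in long regions outside these genes. The LINC-PINT region shared with MKLN1 differed from the long one, with 6 of 15 bins CpG-rich, a GC content of 52.4% and a ratio of 0.641. At 1 μM the regions of the list were lower in GC content, with a median of 41.9%, and 43 of 141 (30.5%) had no CpG-rich bin. The long regions had 39.4% at MIR100HG, 38.5% at MIR222HG and 43.3% at LINC-PINT at that dose, so that LINC-PINT lay above the median of the 1 μM list and below that of the 2.5 μM list. Composition was not used to choose the genes.

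**Figure D5:**
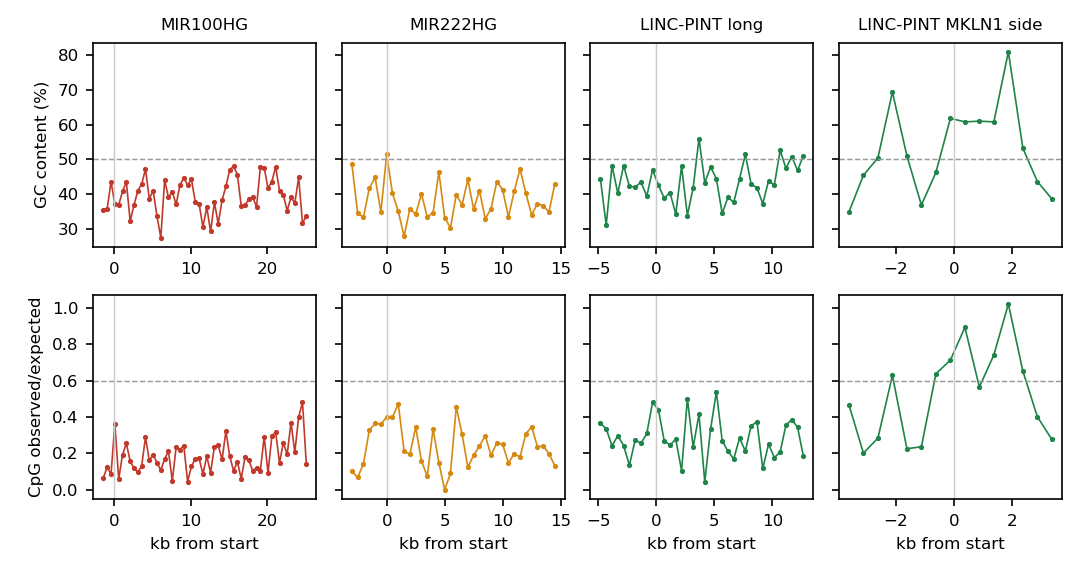
GC content (%, upper row) and observed to expected CpG ratio (lower row) in 500 bp bins along the 2.5 μM regions of MIR100HG, MIR222HG and LINC-PINT (long region, and the region shared with MKLN1), in kb from an annotated start along the direction of transcription. Dashed lines mark 50% and 0.6; the long regions never exceed both in 1 bin, and the region shared with MKLN1 does in 6 of 15 bins.

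The sequence TGANTCA, the core site of the AP-1 transcription factor, was counted in each region (it is its own reverse complement, so that both strands are covered at once). It occurred 15 times in the MIR100HG region at 2.5 μM, 9 times at MIR222HG and 12 times at LINC-PINT, or 0.548, 0.496 and 0.661 times per kb. Over all 2060 other regions the density was 0.310 per kb. Regions without a CpG-rich bin had more, 0.447 per kb over the 409 others, and regions with one had 0.285. Over the 8 other regions of 15000 bp or more the density was 0.333, and 1 of them, at LMNA (named after its value was seen), exceeded the long regions described here with 0.825. At 1 μM the density was 0.579 over the 3 long regions, 0.327 over the other 138 and 0.394 over the 40 of these without a CpG-rich bin. CACGTG, the E-box bound by MYC and MAX and by MAD, occurred 0.0786 times per kb in the long regions at 2.5 μM, 0.122 times in all others and 0.0854 times in the others without a CpG-rich bin. At 1 μM it occurred 0.0782 times per kb in the long regions, 0.0837 times in the others and 0.0603 times in the others without a CpG-rich bin. The long regions held only 5 matches at each dose, 1 at MIR100HG and 2 each at MIR222HG and LINC-PINT. At 2.5 μM these were 0.0366, 0.110 and 0.110 per kb. A match is a description of the letters and not a bound site.

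Promoter sequences at starts of MIR222HG and LINC-PINT inside these regions are shown because the domains surround them and they differ in composition. Each runs from 250 bases before to 50 bases after the start, on the minus strand of GRCh37, 5′ to 3′, with matches on either strand to the E-box CACGTG, the AP-1 site TGANTCA and the Sp1 site GGGCGG in capitals. The first 2 lie in the long regions, at chrX:45629628-45629927 and chr7:130598020-130598319, and the last at chr7:130792638-130792937, in the region shared with MKLN1.
MIR222HG, canonical start: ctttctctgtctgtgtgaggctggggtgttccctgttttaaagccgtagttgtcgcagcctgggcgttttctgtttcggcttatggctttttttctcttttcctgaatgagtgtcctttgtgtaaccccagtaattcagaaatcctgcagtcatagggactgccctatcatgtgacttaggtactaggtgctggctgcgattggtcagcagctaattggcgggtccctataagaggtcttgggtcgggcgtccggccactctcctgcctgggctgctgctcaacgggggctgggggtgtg
LINC-PINT, internal start: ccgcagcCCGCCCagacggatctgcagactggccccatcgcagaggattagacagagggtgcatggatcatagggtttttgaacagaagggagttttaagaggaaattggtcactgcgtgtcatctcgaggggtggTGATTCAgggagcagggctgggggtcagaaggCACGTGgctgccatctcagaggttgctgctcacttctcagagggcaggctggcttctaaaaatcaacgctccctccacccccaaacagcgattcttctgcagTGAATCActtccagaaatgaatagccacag
LINC-PINT, canonical start: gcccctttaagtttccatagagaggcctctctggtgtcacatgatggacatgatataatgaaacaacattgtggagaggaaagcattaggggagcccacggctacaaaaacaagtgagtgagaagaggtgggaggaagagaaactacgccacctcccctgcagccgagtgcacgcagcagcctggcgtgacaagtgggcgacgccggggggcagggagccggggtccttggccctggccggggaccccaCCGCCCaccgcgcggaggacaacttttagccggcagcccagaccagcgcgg

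The MIR222HG sequence had a GC content of 53.7% and a CpG ratio of 0.471, with no match to the 3 motifs in capitals and 2 matches to CCAAT. The internal LINC-PINT start had 54.7% and 0.404, and held 1 CACGTG, 2 TGANTCA and 1 GGGCGG. The canonical LINC-PINT start had 61.0% and 0.614, with 1 GGGCGG, and was the only one of these sequences over both limits for a CpG-rich bin. Of 64417 promoters of the same length, one for each annotated gene start with complete sequence, 5.54% held CACGTG, 8.26% TGANTCA, 26.6% GGGCGG and 36.7% CCAAT.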

How the data were processed

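The authors sequenced native H3K4me3 ChIP DNA from MDA-MB-231 cells, with 1 library for each Tat-SID dose, for untreated cells and for input DNA. Per the labels, FastQC 0.10.0, Bowtie 1.0.0, MACS2 2.1.0 and SICER were used, with hg19. The threshold in the paper's methods is less strict than that in its results, which the lists carry. The deposited files hold region positions only, so depth is unknown from them and no value, error or test could be had. BED starts were counted from 0 and are printed from 1; all starts are multiples of 50, and all lengths are 1 bp short of one, so that each region is 1 bp longer if its end is the last base counted from 0.

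Genes came from GENCODE release 44 on GRCh37, and chromosome names and lengths were checked against it. The genes, lists and tests were chosen with earlier results of these data known. The genes named were the 4 genes, miRNAs within 50 kb, genes starting in their regions, neighbouring protein-coding genes and nearest other regions, miRNA host genes and listed lncRNAs with a region, the 3 miRNA clusters and the 5 longest regions per list. Of 32 listed lncRNAs, 30 matched by symbol. Mature miRNA sequences came from RefSeq (GRCh38.p14, whose positions were not used), and hairpins were placed by exact match to GRCh37. Reference starts were the canonical, otherwise the first basic, transcript of a region. The promoter sequence of MIR100HG is not reported here. The placement of regions was tested on simulated data. Alternatives were the window, the gene start alone, basic transcripts, a minimum of 1000 bp, merging within 3000 bp and the overlap that counts as shared. Tools were Python 3.11.15, numpy 2.4.6 and matplotlib 3.10.9.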

Additional observations from a re-analysis of the deposited data

How the results depend on the processing

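Of 88 alternative values over 27 results, 78 did not move (counts within 1.5 times the value reported, lengths identical), and 10 moved. Counting regions at the gene's own start only, in place of any transcript and the body, left 1 of the 4 genes (MIR222HG) with a region at 1 μM, 2 miRNA host genes at 1 μM and 8 at 2.5 μM, 0 miRNA clusters at 1 μM and 2 listed lncRNAs at 1 μM. With basic transcripts only, the transcript starts inside a region came to 1 at MIR100HG at 1 μM and 2 at 2.5 μM, and to 1 and 13 at LINC-PINT. Within 3 kb of a region, MIR100 had 1 start at 2.5 μM in place of 0. The loss of MIR100HG and LINC-PINT at 1 μM by the gene's own start, and the move of MIR100, follow from the positions given in the results. The cause of the other moves was not tested. No paired analysis was possible because the lists give no test and there was 1 library for each condition. Length is that of the merged island called by SICER-df, not of the interval that lost the mark, and neither the size of the loss nor the sequencing depth can be read from the lists used here.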

Other observations

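Of the regions without any annotated transcript start within 3 kb, 12 of 141 at 1 μM (8.51%) and 161 of 2063 at 2.5 μM (7.80%), the longest at both doses was chr3:104151601-104166899. It had the same ends on both lists, a length of 15299 bp, a GC content of 39.3%, a CpG ratio of 0.238 and no CpG-rich bin among 30. TGANTCA occurred in it 6 times, or 0.392 times per kb.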
